A study of Mus musculus with 36 samples.

Results

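The left ventricle of mice 1 week after myocardial infarction (MI) was compared with the left ventricle 1 day after MI, to follow the change from inflammation to repair within infarcted hearts, without sham animals in the fit. The comparison used the 3 mRNA libraries labelled 1 week of MI and the 3 labelled 1 day of MI, 6 of the 36 libraries of the series and of its 18 mRNA libraries. All were chosen by their labels alone. The mice were C57BL/6 males, 8 weeks old at surgery, in which the proximal left anterior descending coronary artery was ligated. Both groups share strain, sex, operation and tissue and differ in the time after ligation. The study also sequenced sham-operated ventricles, small RNA and a stage of 8 weeks, of which only the 6 sham mRNA libraries of 1 day and 1 week are used here, as background. The tissue is given as left ventricle and no dissection of scar from surviving wall is described, so a library may hold both. The RNA is described as coming from pooled ventricles, and no source used here says how many animals a library holds or that libraries are separate animals, and every p-value therefore covers no more than the library-to-library spread, which may be technical.

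Healing of an infarct is known to pass through overlapping phases. Neutrophils and monocytes enter the dying muscle first and release cytokines and proteases, macrophages then clear the debris, and fibroblasts proliferate, turn into contractile myofibroblasts and lay down a collagen scar. Cardiomyocytes of the adult mouse are hardly replaced, so lost muscle leaves the ventricle for good while surviving muscle remodels.

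The values are FPKM, fragment counts scaled by transcript length and library size, and log2(FPKM + 1) was compared with limma in the 12395 genes for which 3 or more of the 6 libraries reached 1 FPKM. The deposited values of 1 week lay higher as a whole, with a median log2 fold change of 0.51 over all tested genes and a summed FPKM of 388262 to 403190 per library against 298162 to 324813. As deposited, 65.5 percent of the tested genes were called higher and 16.1 percent lower at an adjusted p below 0.05. With quantile normalization the calls were 4748 higher and 4754 lower, and with median-ratio factors 4629 and 5021. Therefore "rose" and "fell" are used below only of genes called in the same direction in all 3 scalings, which 33.3 percent of tested genes met as higher and 16.1 percent as lower. The 3 libraries of 1 week all lay above the 3 of 1 day in 67.2 percent of tested genes and all below in 16.3 percent, and "no overlap" is to be read against these shares. Fold changes are those of the deposited values on the log2(FPKM + 1) scale, which understates changes of genes with low FPKM, and 0.51 has to be taken off to read them relative to all genes. A gene below 1 FPKM in every library of 1 group passed the filter only through the other, so its direction was bound to follow. This held for 1249 tested genes low at 1 day and 141 low at 1 week, and such members are counted beside each list where they weigh. Libraries of a group had Pearson correlations across genes of 0.985 to 0.994 and libraries of different groups of 0.771 to 0.817. Low FPKM values fell on steps that whole fragments give, and these put the depth of the 6 libraries at 0.812 to 1.11 of that of replicate 1 of 1 day, with the 1-week libraries at 0.812 to 0.963. Replicate 1 of 1 week stood apart in markers of skeletal muscle, a tissue next to the heart, with 13.2 FPKM of the fast light chain Mylpf against 0.495 to 0.628 in the other 5 libraries, and in mesothelial markers (mean log2(FPKM + 1) 2.50 against 1.64 and 1.69 in the others of 1 week). Without it 9631 genes were called, 7812 of them higher.

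**Figure D1:**
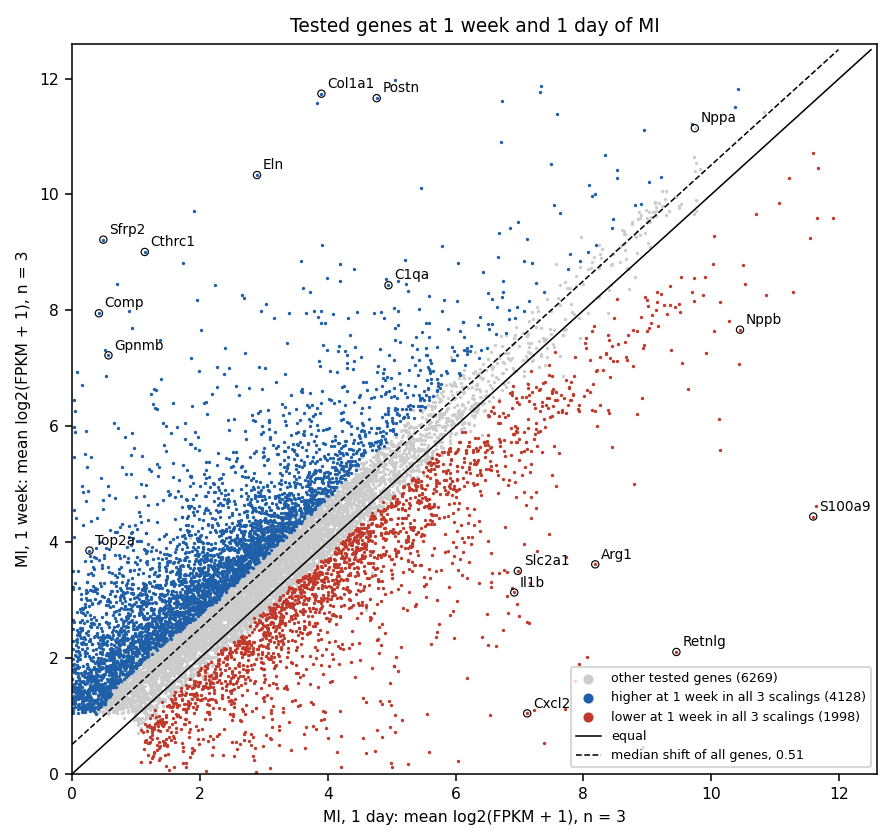
Mean log2(FPKM + 1) of each tested gene at 1 day (x axis) and 1 week (y axis) of MI, n = 3 libraries each. Blue, 4128 genes higher at 1 week in all 3 scalings; red, 1998 lower; grey, the rest. The solid line marks equal values and the dashed line the median shift of 0.51, around which the grey genes lie.

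The genes that rose most at 1 week were almost all genes of scar matrix and of fibroblasts, and those that fell most were genes of neutrophils and inflammatory monocytes. Among the 12 largest rises were the secreted Wnt-binding protein Sfrp2 (log2 fold change 8.73 ± 0.09), the collagen triple helix repeat protein Cthrc1 (7.87 ± 0.14), both chains of type I collagen (Col1a1, 7.84 ± 0.15, and Col1a2, 7.75 ± 0.14), the microfibril protein Mfap4 (7.82 ± 0.11) and elastin, Eln (7.44 ± 0.17). The other 6 were the matricellular Wisp2, Comp and Postn, the Wnt-binding Sfrp1, the small proteoglycan Aspn and the type III collagen chain Col3a1, between 6.90 and 7.74. Sfrp2 had 0.384, 0.410 and 0.415 FPKM in the 3 libraries of 1 day and 583, 542 and 668 in those of 1 week. Sfrp2 was thus below 1 FPKM in every library of the first day and among the abundant mRNAs a week later, while sham libraries held means of 1.28 and 5.97. Sfrp2, Wisp2, Comp and Sfrp1 had passed the filter through 1 week alone, so their direction and lack of overlap were bound to follow. Among the 12 largest falls were Retnlg, a resistin-like protein of neutrophils (-7.35 ± 0.23), S100a9 (-7.15 ± 0.25) and S100a8 (-7.03 ± 0.23), the chains of calprotectin, and Stfa2l1, a stefin-like gene of a family of close copies (-6.86 ± 0.11). The remaining 8 were Il1r2, Lcn2, Cxcl2, Chil3, Slfn4, Cd177, Cxcr2 and Asprv1, between -6.59 and -5.20. Of these, Stfa2l1, Cd177 and Asprv1 had passed the filter through 1 day alone and were bound to come out lower. The limma adjusted p of these 24 genes ran from 1.72e-09 to 6.37e-07, a description, since the genes were picked as the largest changes.

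Neutrophil mRNA was high at 1 day and much nearer the sham level at 1 week. All 19 tested neutrophil genes fell, against 16.1 percent of all genes called lower as deposited and in all 3 scalings, with a median log2 fold change of -4.33. Of these 5 had passed the filter through 1 day alone, and 14 reached 1 FPKM in both groups. S100a9 had 2356, 4268 and 2949 FPKM in the libraries of 1 day and 21.6, 26.9 and 15.3 in those of 1 week. The lowest library of 1 day was far above the highest of 1 week, and sham means were 11.6 and 11.7. Cxcr2, the receptor through which neutrophils follow ELR chemokines, went from 59.1, 138 and 94.7 to 0.808, 1.36 and 0.913 FPKM. Csf3r, the receptor of granulocyte colony-stimulating factor, stood at 52.2, 123 and 83.0 and then at 9.35, 8.77 and 8.41, so more of it remained than of most neutrophil genes. Collagenase Mmp8 and gelatinase Mmp9, both stored in neutrophil granules, fell from 46.3 ± 8.63 to 1.04 ± 0.152 and from 73.7 ± 23.5 to 2.24 ± 0.913 FPKM (mean ± s.d., n = 3). Of genes made mainly by immature neutrophils, Ngp had 16.2 and Ltf 2.80 FPKM at 1 day, and Camp did not pass the filter. In whole tissue, fewer cells of a type and less RNA per cell cannot be told apart, here and below. The mean log2(FPKM + 1) of the list was between 5.68 and 6.09 on the first day, between 1.47 and 1.74 after a week, and 0.53 to 1.08 in sham libraries.

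Chemokines of the ELR class moved together, while the CC class and the other CXC and CX3C ligands split. ELR chemokines, CXC ligands that attract neutrophils, all fell: Cxcl2 (-6.08 ± 0.32), Cxcl1 (-4.50 ± 0.10), Cxcl5 (-4.27 ± 0.24) and the platelet form Ppbp (-3.65 ± 0.30), 4 of 4 tested. Cxcl2 had 75.9, 174 and 199 FPKM at 1 day and 0.838, 1.16 and 1.205 at 1 week, and the 1-day libraries, though spread over more than a doubling, all lay far above. The ligands that attract monocytes through Ccr2 fell as well. Ccl2 went from 152, 292 and 209 to 10.7, 14.9 and 11.8 FPKM and Ccl7 from 75.6, 147 and 112 to 9.32, 13.5 and 8.9999, whereas Ccl12 fell only from 31.2 ± 8.23 to 17.3 ± 2.52. Of 16 tested CC chemokines, 9 fell and 4 rose. The risers were Ccl8 and Ccl5, which attract monocytes and T cells, and the lymphoid Ccl19 and Ccl21a, the last from a cluster of close copies. Ccl8 had 9.06, 6.21 and 3.51 FPKM at 1 day and 48.5, 46.1 and 35.7 at 1 week. Of 8 other CXC and CX3C chemokines, 4 rose, among them the stromal Cxcl12 (31.9 ± 4.83 to 142 ± 22.7 FPKM), the scavenger-type Cxcl16 (7.44 ± 0.707 to 61.3 ± 4.46) and fractalkine, Cx3cl1 (3.68 ± 0.249 to 25.3 ± 1.01). The interferon-induced Cxcl10, platelet Pf4 and Cxcl14 fell, the last by a small amount (-0.41 ± 0.15) whose call was lost without replicate 2 or 3 of 1 day or replicate 1 or 3 of 1 week (limma adjusted p 0.0916 to 0.103).

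Chemokine receptors divided as well. Next to Cxcr2, Ccr1, carried by neutrophils and monocytes, fell from 57.7, 114 and 91.3 to 4.25, 5.19 and 3.17 FPKM. Ccr2 of inflammatory monocytes fell less, from 27.8, 44.6 and 34.0 to 22.0, 22.2 and 17.2. Cx3cr1, the fractalkine receptor of patrolling monocytes and tissue macrophages, rose from 0.953, 1.08 and 1.31 to 19.6, 20.4 and 17.8, and Ackr4, a decoy receptor for CCL19 and CCL21, from 0.290, 0.139 and 0.274 to 11.9, 11.4 and 11.9. Cxcr4, the receptor of CXCL12, rose from 24.5 ± 6.42 to 51.4 ± 6.64. Of 14 tested receptors, 4 rose and 6 fell, where 33.3 percent of all tested genes rose and 16.1 percent fell, so the share of risers was not above that of all genes. Of the tested receptors 2, Ackr4 among them, had passed the filter through 1 week alone, and 7 more did not pass it.

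**Figure D2:**
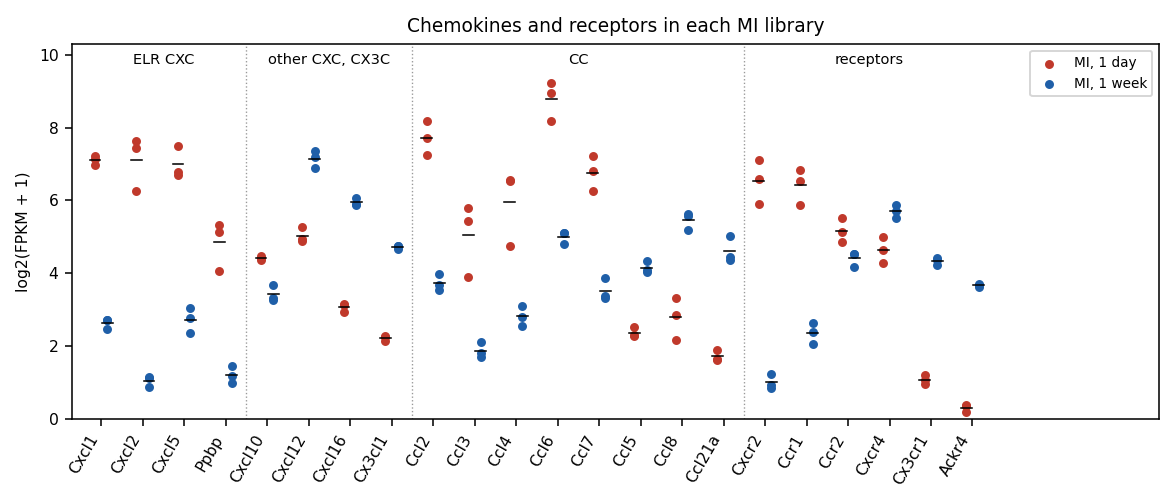
log2(FPKM + 1) of chemokines and their receptors in each MI library (red, 1 day; blue, 1 week; bars, means), grouped as ELR CXC, other CXC and CX3C, CC and receptors. All 4 ELR chemokines lie lower in every library of 1 week, while Cxcl12, Cxcl16, Cx3cl1, Ccl5, Ccl8 and Ccl21a lie higher.

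Acute cytokines and mediators fell with them, 14 of 17 tested, against 16.1 percent of all tested genes, with a median of -2.36. Of the 17 tested, 4 had passed the filter through 1 day alone, and 13 reached 1 FPKM in both groups. Il1b, the main secreted interleukin 1, had 60.7, 176 and 161 FPKM at 1 day and 6.67, 12.64 and 5.42 at 1 week (-3.79 ± 0.42, limma adjusted p 5.02e-05). Il6 went from 42.6, 73.2 and 66.2 to 6.16, 7.11 and 4.14 FPKM, and Osm, a related cytokine, from 8.19, 18.02 and 16.3 to 2.14, 1.59 and 1.73. Replicate 1 of 1 day was the lowest of its group for all 3 genes, and still above each library of 1 week. The natural inhibitors of interleukin 1 fell too, the antagonist Il1rn from 56.5 ± 27.3 to 4.47 ± 0.477 FPKM and the decoy receptor Il1r2 from 212 ± 48.5 to 1.22 ± 0.494. Ptgs2, the inducible cyclooxygenase, fell from 34.6 ± 4.87 to 3.76 ± 1.72. Il33, an alarmin of stromal cells, was called higher as deposited (11.55 ± 2.30 to 20.6 ± 1.76 FPKM) and after quantile normalization but not with median-ratio factors (0.19, limma adjusted p 0.152). Targets and feedback genes of NF-κB fell in 15 of 21, among them the STAT3 inhibitor Socs3 (67.8 to 12.1 FPKM) and Nfkbia (84.3 to 34.8), and the endothelial selectins Selp (21.6 to 2.92) and Sele (8.86 to 1.22). The adhesion molecule Vcam1, the only riser, went from 10.5 to 44.2.

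Immediate early genes, which encode transcription factors induced within minutes of a stimulus, fell in 19 of 25, with a median of -0.79. The largest fall was that of the AP-1 subunit Fosl1 (7.62 to 0.0751 FPKM). Fosl1 had passed the filter through 1 day alone and was bound to come out lower. Atf3 fell from 44.3, 50.1 and 52.0 to 14.4, 9.89 and 14.1, and Fos, at 28.8, 31.2 and 32.7 and then 25.03, 14.4 and 14.5, had 1 library of 1 week close to those of 1 day. The flow-responsive factor Klf2 rose (19.3 to 37.4). Of 35 interferon-induced genes 19 fell and 3 rose. The antiviral Rsad2 fell from 40.5 ± 6.08 to 6.51 ± 1.09 FPKM, and tetherin, Bst2, and the immunoproteasome subunit Psmb9 rose (56.8 to 124 and 7.69 to 16.5).

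Genes induced by low oxygen fell almost as one, 29 of 33 tested, with none called higher in all 3 scalings and a median of -1.21. The oxygen-sensing hydroxylase Egln3, itself a HIF target, had 112, 114 and 111 FPKM at 1 day and 4.32, 6.22 and 7.30 at 1 week. The glucose transporter Slc2a1 went from 122, 125 and 127 to 10.2, 11.05 and 9.81, and Vegfa, the angiogenic growth factor, from 76.3, 68.5 and 74.0 to 9.56, 11.7 and 13.96. The libraries of each group were tight for all 3 genes and far from those of the other. Sham ventricles held 44.6 and 46.5 FPKM of Vegfa, above the 1-week level of MI, but only 4.79 and 3.64 of Slc2a1, below it. Adm, the vasodilator adrenomedullin, fell from 35.4 ± 6.24 to 6.37 ± 1.15. 22 of 27 genes of glycolysis and the pentose phosphate route fell, led by Slc2a1, the lactate exporter Slc16a3 (90.4 to 15.2 FPKM) and hexokinase Hk2 (45.4 to 8.95). The pentose phosphate enzyme Pgls rose (20.01 to 45.0).

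Protein-folding and amino acid stress genes were lower as well. Of 16 heat shock genes 12 fell. Hspa1a went from 84.6, 76.8 and 111 to 3.62, 4.49 and 2.97 FPKM, and its nearly identical neighbour Hspa1b, whose reads cannot be fully separated from it, from 82.3, 75.1 and 112 to 5.59, 6.56 and 5.26. The small heat shock proteins of muscle Hspb1 and Cryab fell from 1389 ± 99.6 to 135 ± 14.6 and from 2494 ± 225 to 329 ± 98.6. Of 27 genes of the integrated stress and unfolded protein responses 18 fell, such as Cebpb (65.5 to 14.1), Ddit3 (37.3 to 16.4) and the chaperone Hspa5 (513 to 201). Sham libraries were lower at 1 week too, with a list mean log2(FPKM + 1) of 4.06 to 4.28 and then 3.34 to 3.48. In MI it was 5.33 to 5.40 and then 4.62 to 4.86. Ddit3 went from 18.8 to 7.85 FPKM in sham (-1.18), with no call for the interaction (0.03, limma adjusted p 0.891), whereas Cebpb was not lower in sham (4.86 and 6.27). The disulfide isomerase Pdia3 (123 to 268) and Phgdh, the entry enzyme of serine synthesis (3.82 to 12.9), rose.

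Monocyte genes gave way to macrophage genes, but not all genes named for reparative macrophages rose. Of 15 inflammatory monocyte genes 10 fell. Chil3, a chitinase-like protein, went from 304, 264 and 235 to 3.29, 2.54 and 3.32 FPKM and Ly6c2, the surface marker of these cells, from 46.3, 63.6 and 45.2 to 7.73, 6.75 and 6.53. Ace, angiotensin-converting enzyme, rose (10.5 to 51.1). Of 20 general macrophage genes 11 rose and 3 fell, with a median of 1.81. Emr1, which encodes the F4/80 antigen, had 6.49, 10.98 and 9.22 FPKM at 1 day and 87.9, 79.1 and 80.2 at 1 week (3.10 ± 0.16). C1qa, a chain of complement C1q, had 31.6, 28.4 and 29.8 at 1 day and 363, 341 and 331 at 1 week (3.48 ± 0.09). Both were alike within groups and did not overlap. The 3 fallers were Itgam and Cd14, which neutrophils and monocytes share (140.2 to 24.1 and 159 to 26.6), and Cd53. Csf1r, the receptor on which macrophages depend, rose from 29.6 ± 6.98 to 95.9 ± 5.58, and the pan-leukocyte Ptprc was not called as deposited (30.2 ± 6.23 and 32.9 ± 2.79) but lower with median-ratio factors (-0.49).

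Of 17 resident and reparative macrophage genes 8 rose and 7 fell, a median of 0.12. Of the 17 tested, 2, Ccl24 among them, had passed the filter through 1 day alone and were bound to come out lower. Arg1, the arginase often used to mark reparative macrophages, was high at 1 day and low at 1 week, with 198, 363 and 339 FPKM in the first group and 11.7, 15.4 and 7.82 in the second (-4.57 ± 0.28, limma adjusted p 1.44e-06). Ccl24, Retnla and Cd163 fell as well (6.77 to 0.404, 3.27 to 0.539 and 3.43 to 1.11), and Lyve1, shared by resident macrophages and lymphatic vessels, went from 12.1, 11.7 and 12.61 to 5.36, 5.41 and 4.23. Mrc1, the mannose receptor, rose from 8.37, 9.18 and 9.82 to 24.5, 28.3 and 26.8 (1.44 ± 0.09). Igf1, a growth factor that macrophages and fibroblasts secrete, rose from 1.49, 1.25 and 1.29 to 36.9, 36.2 and 35.8 (3.99 ± 0.07). The macrophage membrane protein Ms4a7 rose from 2.69, 3.09 and 2.18 to 162, 130.4 and 141. Mrc1 and Arg1, both widely used as markers of alternatively activated macrophages, thus moved in opposite directions with no overlap between groups in either. Timd4, Cd209f and Cd209g did not pass the filter.

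Genes of lysosomes and of the uptake of dead cells mostly rose, and lipid-handling genes of macrophages went both ways. Gpnmb, a glycoprotein of phagocytes, had 0.532, 0.394 and 0.527 FPKM at 1 day and 171, 125 and 153 at 1 week (6.66 ± 0.12). Trem2, a lipid-sensing receptor, had 4.47, 5.501 and 4.78 at 1 day and 118, 93.3 and 99.4 at 1 week (4.14 ± 0.11). Apoe, which carries cholesterol out of cells, had 145, 175 and 157 at 1 day and 3901, 3222 and 3416 at 1 week (4.46 ± 0.14). No library of 1 week overlapped those of 1 day in any of the 3, which was bound to follow for Gpnmb, below 1 FPKM in every library of 1 day. Spp1, osteopontin, was already present at 1 day, with 138, 348 and 324 FPKM, and stood at 649, 581 and 618 at 1 week. It was called higher as deposited (1.30 ± 0.32, limma adjusted p 0.0052) but not with median-ratio factors (0.65, 0.0757). Within this list 10 of 22 rose and 7 fell, and the fallers Lpl, Cd36 and Fabp4, lipid uptake and carrier genes that cardiomyocytes or capillaries also express, went from 341 to 121, 223 to 89.6 and 853 to 379.8 FPKM. Lysosomal genes were all called higher as deposited and 31 of 32 in all 3 scalings, with a median of 1.99. The collagen-cleaving Ctsk rose most (3.68, 3.43 and 2.83 to 76.7, 73.9 and 69.8 FPKM), and Ctsb and the lysosomal lipase Lipa rose from 101 ± 11.95 to 642 ± 49.2 and from 11.7 ± 0.714 to 81.7 ± 5.19. Of 20 genes of efferocytosis, the uptake of dead cells, 4 had passed the filter through 1 week alone, and 15 rose. They held the receptor kinases Mertk (5.74 ± 0.666 to 15.47 ± 0.471) and Axl (24.0 ± 1.49 to 79.2 ± 3.06) and their bridging ligand Gas6 (14.6 ± 1.01 to 219.8 ± 15.6), and Cd300lf fell (96.3 to 8.88).

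Antigen-presenting genes were higher, and lymphocyte genes were low in both groups. Of 21 MHC class II and dendritic cell genes 12 rose, where 33.3 percent of all tested genes did. Of the 21, 5 had passed the filter through 1 week alone and were bound to come out higher. The costimulatory Cd80 was the 1 that fell (12.4 to 4.91 FPKM), a call lost without replicate 3 of 1 day (limma adjusted p 0.0523). H2-Eb1, a class II chain, rose from 13.8 ± 2.53 to 130.3 ± 13.9 and Cd74, the invariant chain, from 102 ± 17.95 to 487 ± 43.2. Of 23 T and NK cell genes only 9 passed the filter, 7 of them through 1 week alone, and 3 rose, Cd3d, Cd4 and Nkg7, none above 3.19 FPKM. Of 12 B cell genes 3 passed, and Cd22 rose (0.401 to 3.79). Cd22 had passed through 1 week alone and was bound to come out higher. Of 10 mast cell and eosinophil genes only Kit and Ear2 passed and both fell (7.57 to 5.89 and 2.47 to 1.15). The mast cell protease Cpa3 stayed under the filter, with 0.199, 0.235 and 0.219 FPKM at 1 day and 1.32, 0.562 and 0.274 at 1 week, and the mean log2(FPKM + 1) of the list was 0.70 to 0.80 against 0.73 to 1.01.

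Most proliferation genes were below 1 FPKM at 1 day and above it at 1 week. Of 36 genes of G2 and mitosis 35 passed the filter, and 34 of these were below 1 FPKM in every library of 1 day. They passed through the 1-week libraries alone and were bound to come out higher, so the 35 calls and their median of 2.35 are a description and no support, and single genes are given by their values. Mki67, the proliferation marker Ki-67, had 0.481, 0.481 and 0.465 FPKM at 1 day and 11.2, 12.7 and 8.91 at 1 week (3.00 ± 0.12). Cdk1, the mitotic kinase, had 0.177, 0.122 and 0.206 at 1 day and 8.70, 9.05 and 6.64 at 1 week (2.96 ± 0.11). Top2a, which untangles sister DNA, had 0.177, 0.230 and 0.214 at 1 day and 13.7, 16.1 and 10.98 at 1 week (3.58 ± 0.12). The libraries of 1 day were alike and far below, and among those of 1 week replicate 2 was highest and replicate 3 lowest for each. Sham means at 1 week were 1.18, 0.614 and 1.38 FPKM, against 0.237, 0.137 and 0.209 at 1 day. Of 29 genes of S phase 24 rose, 13 of the tested ones having passed through 1 week alone, with thymidine kinase Tk1 from 0.213 ± 0.130 to 8.12 ± 1.497. Of 20 genes of cell cycle entry and arrest 7 rose and 4 fell, near the shares of all tested genes (33.3 and 16.1 percent). Of the 20 tested, 2, Cdkn2b among them, had passed the filter through 1 week alone. The inhibitors of the cycle divided. Cdkn1a, which encodes p21, fell from 108, 132 and 123 to 32.5, 36.7 and 26.8, while Cdkn2c and Cdkn2b rose from 1.80 ± 0.263 to 12.9 ± 0.566 and 0.692 ± 0.117 to 8.23 ± 0.938. Cyclin D1, Ccnd1, which acts early in the cycle, was not called as deposited (16.4 ± 2.65 and 14.3 ± 2.24) but lower in both other scalings (-0.62 and -0.78).

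The upstream sequences of the 4 G2 and mitosis genes with the largest rises are printed because these genes were low together at 1 day and cell cycle promoters are known for a pair of short elements, the cell cycle genes homology region and the CCAAT box bound by NF-Y. They were taken from RefSeq, build GRCm38.p6, as the 250 bases before the annotated start of each gene, on the strand of the gene. Capitals mark TTTGAA or TTCGAA (the homology region) and CCAAT, on either strand, so that they also read TTCAAA or TTCGAA and ATTGG. The printed regions are chr11:99024190-99024439 (minus strand, Top2a), chr2:164769679-164769928 (plus strand, Ube2c), chr11:117848987-117849236 (plus strand, Birc5) and chr7:80294201-80294450 (plus strand, Prc1).
Top2a: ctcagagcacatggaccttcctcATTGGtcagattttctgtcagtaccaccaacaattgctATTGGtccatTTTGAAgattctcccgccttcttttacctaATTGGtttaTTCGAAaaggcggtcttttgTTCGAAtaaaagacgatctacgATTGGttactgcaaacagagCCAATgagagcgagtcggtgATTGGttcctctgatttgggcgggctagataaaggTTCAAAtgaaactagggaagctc
Ube2c: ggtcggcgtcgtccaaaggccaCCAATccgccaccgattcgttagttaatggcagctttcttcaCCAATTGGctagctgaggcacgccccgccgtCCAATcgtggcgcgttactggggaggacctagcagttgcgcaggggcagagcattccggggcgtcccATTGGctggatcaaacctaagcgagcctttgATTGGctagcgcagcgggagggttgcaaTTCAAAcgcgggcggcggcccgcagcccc
Birc5: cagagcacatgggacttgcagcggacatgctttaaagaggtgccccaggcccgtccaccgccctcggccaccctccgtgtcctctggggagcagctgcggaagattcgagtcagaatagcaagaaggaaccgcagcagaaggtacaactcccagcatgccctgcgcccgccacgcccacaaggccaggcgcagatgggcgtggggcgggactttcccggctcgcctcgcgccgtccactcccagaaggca
Prc1: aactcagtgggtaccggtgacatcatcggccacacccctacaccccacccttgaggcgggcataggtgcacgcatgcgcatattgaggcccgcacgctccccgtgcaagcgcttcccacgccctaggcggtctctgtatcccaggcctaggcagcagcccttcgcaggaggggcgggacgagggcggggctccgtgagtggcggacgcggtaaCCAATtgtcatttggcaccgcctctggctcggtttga
The Top2a sequence held 4 matches to the homology region and 6 to CCAAT, that of Ube2c (0.457 ± 0.203 to 14.1 ± 2.85 FPKM), a ubiquitin-conjugating enzyme of mitotic exit, 1 and 6, and that of Prc1 (0.252 ± 0.0675 to 9.85 ± 1.91), which bundles spindle microtubules, 0 and 1, with 1 more match to the homology region that spans the annotated start and so begins in the last printed bases. That of Birc5 (0.422 ± 0.125 to 12.4 ± 2.99), survivin, held neither. Of the 30 list members with a promoter among the RefSeq sequences (250 bases before to 50 after the start), 25 held the homology region, 83.3 percent, and 23 CCAAT, 76.7 percent. Among all 27025 promoters of that length the shares were 19.4 and 37.9 percent, and among the 9313 tested genes with a promoter 13.5 and 38.6 percent. Of 22 S phase genes 3 held the homology region and 15 CCAAT, and of 13 fibrillar collagen genes 1 and 4. These are matches of letters in a window, not sites shown to be bound.

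Of the lists with 10 or more tested members, fibrillar collagen had the highest median. All 18 tested fibrillar and associated collagen chains rose, with a median of 5.25 against 0.51 for all genes. Of these 5 had passed the filter through 1 week alone, and the other 13 reached 1 FPKM in both groups. Col1a1 had 15.7, 12.8 and 13.5 FPKM at 1 day and 3755, 3845 and 2768 at 1 week. Col3a1, which forms finer fibrils, had 34.2, 30.3 and 31.8 at 1 day and 4303, 4025 and 3813 at 1 week. Replicate 3 was the lowest of 1 week for both and still far above each 1-day library. The smallest rises on the log2 scale were those of Col24a1 (0.00142 to 2.47 FPKM) and Col5a3 (3.28 to 15.99), and the cartilage-type chain Col11a1 went from 0.0235, 0.0376 and 0.0106 to 81.5, 75.0 and 38.9. The basement membrane chains rose in 17 of 18 with a lower median (1.93). Col4a1, a chain of type IV collagen, went from 146 ± 13.96 to 452 ± 26.8. Of 27 genes of collagen processing 22 rose, and 3 of the tested ones had passed the filter through 1 week alone. The crosslinking oxidase Lox had 25.8, 19.5 and 16.4 FPKM at 1 day and 485, 424 and 357 at 1 week (4.31 ± 0.17). The prolyl hydroxylase P4ha3, which the folding of collagen needs, had 0.167, 0.191 and 0.0929 at 1 day and 53.5, 48.0 and 35.0 at 1 week (5.32 ± 0.14). Its relative P4ha1 was not called as deposited (33.0 ± 2.10 and 34.3 ± 3.61) but lower in both other scalings (-0.29 and -0.58), P4ha2 was higher as deposited only (18.1 to 26.1), and Tgm2, a transglutaminase, fell (193 to 75.4).

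Matricellular and other scar proteins were all called higher as deposited and 25 of 29 in all 3 scalings, with a median of 4.42. Of the tested ones, 4 had passed the filter through 1 week alone, and 25 reached 1 FPKM in both groups. Postn, secreted by activated fibroblasts, had 25.6, 27.8 and 25.3 FPKM at 1 day and 3488, 3466 and 2815 at 1 week. Fn1, fibronectin, had 69.3, 129.7 and 125 at 1 day and 2206, 2172 and 1472 at 1 week (4.19 ± 0.26). Replicate 3 of 1 week was the lowest of its group for both. Eln went from 6.29, 5.87 and 7.18 to 1437, 971 and 1541, here with replicate 2 lowest. Comp, a protein of tendon and cartilage, went from 0.349, 0.252 and 0.414 to 275, 226 and 240.3. Sparc and Bgn reached 3761 ± 384 and 3129.7 ± 182, from 160.0 ± 7.59 and 104.9 ± 3.92. The 4 that lost the call in another scaling were Vcan and Tnc, called only as deposited, and Thbs1 and Spp1, lost with median-ratio factors alone, with means of 21.1 to 270.0 FPKM at 1 day already. Without replicate 2 of 1 week Thbs1 was not called (limma adjusted p 0.0533). Tnc, a matrix protein of early wounds, had 35.8, 59.7 and 46.1 and then 78.8, 116 and 58.0 FPKM. Replicate 3 of 1 week lay below the highest library of 1 day, and the call was lost with median-ratio factors (limma adjusted p 0.576), and without replicate 1 or 3 of 1 day or replicate 2 of 1 week (0.0559 to 0.0788).

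Proteases and their inhibitors exchanged members. The metalloproteases of neutrophils fell (above), and those of stroma rose, such as gelatinase A, Mmp2 (6.31, 7.26 and 6.71 to 262, 264 and 234 FPKM), the membrane-bound Mmp14 (24.6, 32.0 and 28.9 to 245, 266 and 191) and Mmp23 (1.40 ± 0.233 to 82.7 ± 7.72). Of the inhibitors, Timp1 fell from 301, 403 and 307 to 188, 232 and 158 and Timp4 from 8.52 ± 1.30 to 0.732 ± 0.515, whereas Timp2 and Timp3 rose from 11.6 ± 0.324 to 248 ± 15.01 and from 47.0 ± 0.0631 to 301 ± 11.9. The secreted protease inhibitor Serpine2 rose (15.04 to 158). In total 14 of 31 rose and 12 fell, and of the tested ones 5 had passed the filter through 1 week alone and 2 through 1 day alone.

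**Figure D3:**
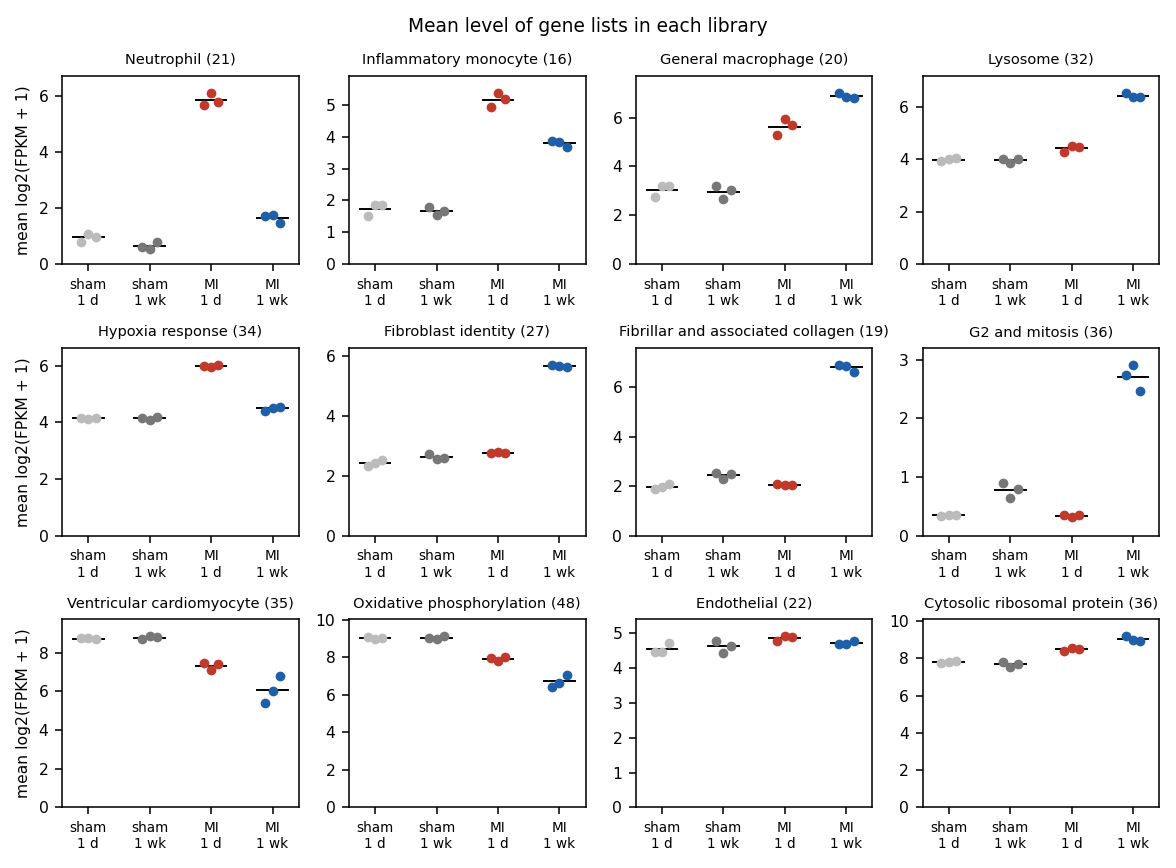
Mean log2(FPKM + 1) over the listed members (number in brackets, with those below the filter) of 12 gene lists in each library; points, libraries; bars, means of 3; grey, sham; red, MI at 1 day; blue, MI at 1 week. Fibrillar collagen stood at 2.03 to 2.11 at 1 day and 6.63 to 6.91 at 1 week of MI, and neutrophil genes moved the other way.

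Fibroblast genes rose in 24 of 26 tested, with none lower as deposited, and 4 of the tested ones had passed the filter through 1 week alone. Pdgfra, a receptor that resident cardiac fibroblasts carry, rose from 11.7, 13.3 and 11.46 to 30.1, 27.9 and 30.5 FPKM (1.21 ± 0.08). Tcf21, their transcription factor, rose from 3.66, 4.42 and 3.54 to 45.9, 38.6 and 52.8 (3.26 ± 0.12). Sham hearts held 3.68 and 3.76 FPKM of Tcf21, close to MI at 1 day. Meox1, a factor of activated fibroblasts, had 10.1, 10.2 and 9.84 at 1 day and 34.5, 46.3 and 47.0 at 1 week. Wisp1, a matricellular target of Wnt signalling, had 2.50, 3.35 and 2.58 at 1 day and 61.1, 64.3 and 51.4 at 1 week. The actin-severing Gsn was not called as deposited (242 ± 13.9 and 236 ± 44.7) but lower with median-ratio factors (-0.70). Contractile genes of myofibroblasts and smooth muscle rose in 16 of 20, with 3 of the tested ones having passed the filter through 1 week alone. Acta2, smooth muscle actin, had 29.6, 30.3 and 40.5 FPKM at 1 day and 382, 475 and 262 at 1 week (3.41 ± 0.22). Tagln, an actin-binding protein of smooth muscle, had 13.1, 14.7 and 16.9 at 1 day and 401, 467 and 284 at 1 week (4.58 ± 0.18). In each, replicate 2 of 1 week was highest and replicate 3 lowest. Tpm1 and Myocd, which cardiomyocytes also express, fell (3261 to 1468 and 4.34 to 1.88). Of 12 pericyte genes 6 rose, with Rgs5 from 34.4, 36.2 and 42.6 to 114, 126 and 132, and Kcnj8 fell (11.9 to 8.76).

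In the TGF-β family, which drives matrix synthesis, the ligand Tgfb1 had 35.4, 52.5 and 42.0 FPKM at 1 day and 39.2, 39.9 and 40.1 at 1 week, with overlap. It was not called as deposited (-0.10 ± 0.13, limma adjusted p 0.491), but both other scalings called it lower, quantile (-0.42, 0.00588) and median-ratio (-0.73, 0.00045). Tgfb3 rose from 4.04, 3.497 and 3.96 to 139, 126 and 121 (4.74 ± 0.09). Tgfb2 rose from 6.86, 5.85 and 6.15 to 15.96, 19.5 and 16.4 (1.32 ± 0.10). The latent-binding protein Ltbp3 and the receptors Tgfbr1 and Tgfbr2 rose from 3.27 ± 0.198 to 84.3 ± 3.99, 9.28 ± 1.101 to 38.8 ± 3.87 and 18.7 ± 0.931 to 66.5 ± 2.55. Inhba, whose dimer is activin A, fell from 26.0, 35.4 and 32.7 to 12.49, 17.2 and 8.08, and its antagonist Fst rose (1.31 to 8.97). Inhbb and the stress cytokine Gdf15 fell too, and 15 of 27 members of the family rose.

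Growth factors of vessels and stroma also parted. Placental growth factor, Pgf, fell from 91.0, 101 and 91.1 to 11.9, 10.1 and 8.41 FPKM, with Vegfb (49.9 to 24.8) beside Vegfa, while the lymphatic factors Vegfc and Figf (VEGF-D) rose from 3.24 ± 0.511 to 10.2 ± 0.217 and from 0.232 ± 0.0527 to 19.7 ± 3.59. Pleiotrophin, Ptn, a heparin-binding growth factor, had 0.123, 0.0378 and 0.187 at 1 day and 122, 89.9 and 104 at 1 week (6.56 ± 0.12). Its relative midkine, Mdk, had 0.753, 0.904 and 1.08 at 1 day and 62.7, 50.8 and 60.6 at 1 week (4.95 ± 0.10). Of 26 growth factors of repair 15 rose and 4 fell, and 4 of the tested ones had passed the filter through 1 week alone. Of 18 Wnt ligands, receptors and modulators 15 rose and none was lower as deposited, but 12 of the tested ones passed through 1 week alone. The largest rises were those of Sfrp2, Wisp2 and Sfrp1, followed by Dkk3 (0.167 ± 0.0558 to 59.5 ± 1.66) and the Wnt-binding Frzb (3.58 ± 0.424 to 93.3 ± 10.02), and the ligand Wnt5a went only from 0.514 ± 0.104 to 3.25 ± 0.266.

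Endothelial genes changed less than those of stroma, with 4 of 22 risen and 10 fallen, where 33.3 percent of all tested genes rose and 16.1 percent fell. Their median was -0.0038 as deposited, but -0.51 relative to all genes. With median-ratio factors it was -0.63, and 15 of the 22 were called lower. Kdr, the main VEGF receptor, had 19.8, 20.9 and 20.4 FPKM at 1 day and 18.6, 21.0 and 21.8 at 1 week. Cdh5, VE-cadherin of endothelial junctions, had 75.4, 98.0 and 88.9 at 1 day and 91.8, 96.1 and 86.2 at 1 week, and the groups overlapped in both. Neither was called as deposited (limma adjusted p 0.948 and 0.581), but with median-ratio factors both were lower (-0.61, 0.000275, and -0.57, 0.000416), Kdr also after quantile normalization (-0.41, 0.00289). Genes of vessel subtypes moved more. Plvap, of fenestrated and venous endothelium, rose from 19.95, 19.5 and 19.2 to 69.7, 61.1 and 60.1 and the apelin receptor Aplnr from 2.56, 2.51 and 3.10 to 32.7, 31.2 and 30.4, while its ligand Apln fell (24.2 to 8.57). The capillary genes Rgcc and Cldn5 fell (39.9 to 11.2 and 43.6 to 16.6). Of the 18 tip and venous genes 7 rose and 7 fell, where 33.3 percent of all tested genes rose and 16.1 percent fell.

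**Figure D4:**
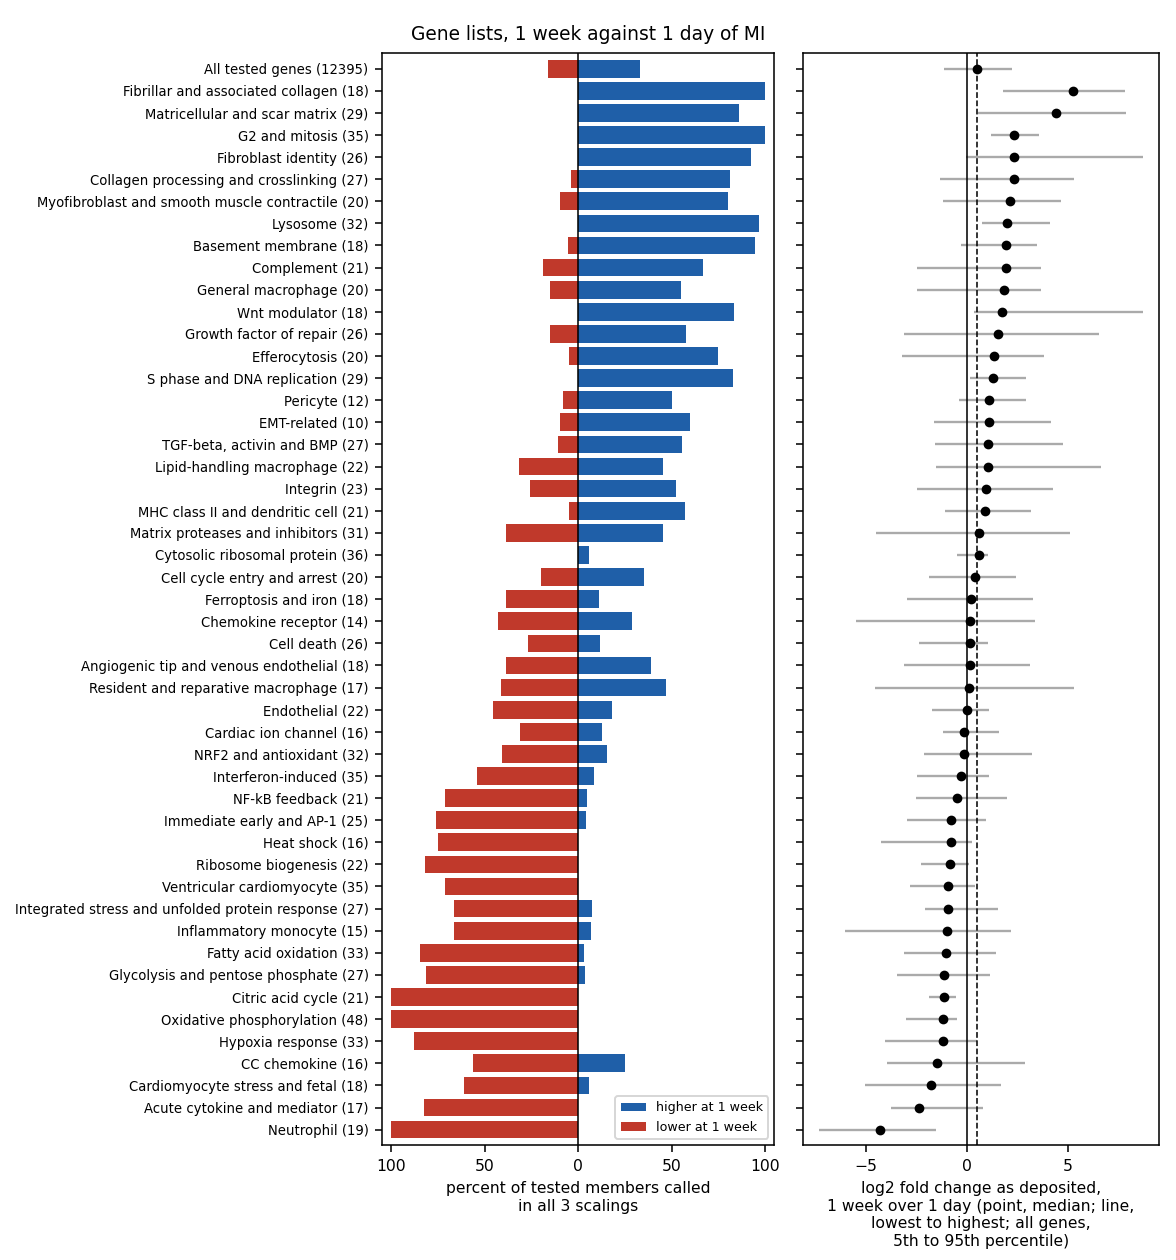
Left, percent of the tested members of each list (number in brackets) called higher (blue) or lower (red) at 1 week in all 3 scalings. Right, median (point) and lowest to highest (line) log2 fold change as deposited, with the 5th to 95th percentile for all genes; the dashed line is the median of all genes, 0.51. Lists with at least 10 tested members are ordered by median, from fibrillar collagen (5.25) to neutrophil genes (-4.33); the top row gives all genes.

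Cardiomyocyte genes were lower at 1 week than at 1 day. Of 35 ventricular cardiomyocyte genes 25 fell and none rose, with a median of -0.95. Myh6, the main adult myosin heavy chain of mice, had 786, 619 and 796 FPKM at 1 day and 120.0, 231 and 553 at 1 week. The 1-week libraries were widely spread, replicate 1 being lowest and replicate 3 highest, and all stayed below those of 1 day (Myh6, -1.55 ± 0.47, limma adjusted p 0.0143). Troponin T, Tnnt2, had 2422, 1833 and 2209 at 1 day and 617, 936 and 1345 at 1 week. The calcium pump Atp2a2 had 656, 551 and 708 and then 155, 232 and 399. The order of the 1-week replicates was the same in both, and again in the fatty acid carrier Fabp3, with 1170.3, 1002 and 1222 at 1 day and 151, 265 and 567 at 1 week. The mean log2(FPKM + 1) of the list was 5.38, 6.03 and 6.81 in the replicates of 1 week, 7.08 to 7.45 at 1 day and 8.69 to 8.85 in sham libraries. Pln, the inhibitor of the pump, went from 297, 183 and 270.1 to 109, 174 and 322 FPKM with overlap and was not called as deposited (-0.42 ± 0.36, limma adjusted p 0.31). It was called lower with median-ratio factors (-1.06, 0.0432), and as deposited without replicate 3 of 1 week (-0.82, limma adjusted p 0.0162). Mybpc3, myosin-binding protein C, had 146, 99.5 and 140.1 at 1 day and 101, 177 and 259.9 at 1 week and was not called (0.39 ± 0.31, limma adjusted p 0.272), but it was higher without replicate 1 of 1 week (0.75, limma adjusted p 0.0123). As deposited 25 members of the list were called lower, 18 without replicate 1 or 3 of 1 day, 27 without replicate 2 of 1 day, 20 without replicate 1 or 2 of 1 week and 31 without replicate 3 of 1 week.

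Most stress and fetal genes of cardiomyocytes fell, while 6 of 18 were called higher as deposited but only 1 of them in all 3 scalings. The natriuretic peptide Nppb fell from 1443, 1397 and 1355 FPKM to 130.0, 219.8 and 289, near its sham means of 209 and 187. Its relative Nppa had 977, 776 and 827 and then 1593, 2053 and 3545, with no overlap and far above sham (223 and 177). It was called higher as deposited (1.40 ± 0.28, limma adjusted p 0.00171) and after quantile normalization (1.17, 0.018), but not with median-ratio factors (0.76, 0.056). Myh7, the fetal and slow myosin, had 42.6, 38.6 and 37.1 and then 47.2, 79.2 and 121 and was called as deposited only. Ankrd1, a stretch-responsive nuclear protein, fell from 3151, 2889.5 and 2891 to 396, 623 and 907 and its relative Ankrd2 from 49.8, 31.3 and 32.5 to 0.158, 0.0712 and 0.152. Ankrd2 had passed the filter through 1 day alone and was bound to come out lower. The repair-associated Xirp1 fell from 116, 114 and 104 to 4.58, 7.68 and 11.1. In total 11 of 18 stress and fetal genes fell and 1, the ubiquitin hydrolase Uchl1, rose (10.1 to 34.6). Of 16 cardiac ion channel genes 5 fell and 2 rose, both connexins (Gja5, 5.98 to 20.1, and Gjc1, 7.88 to 15.6).

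**Figure D5:**
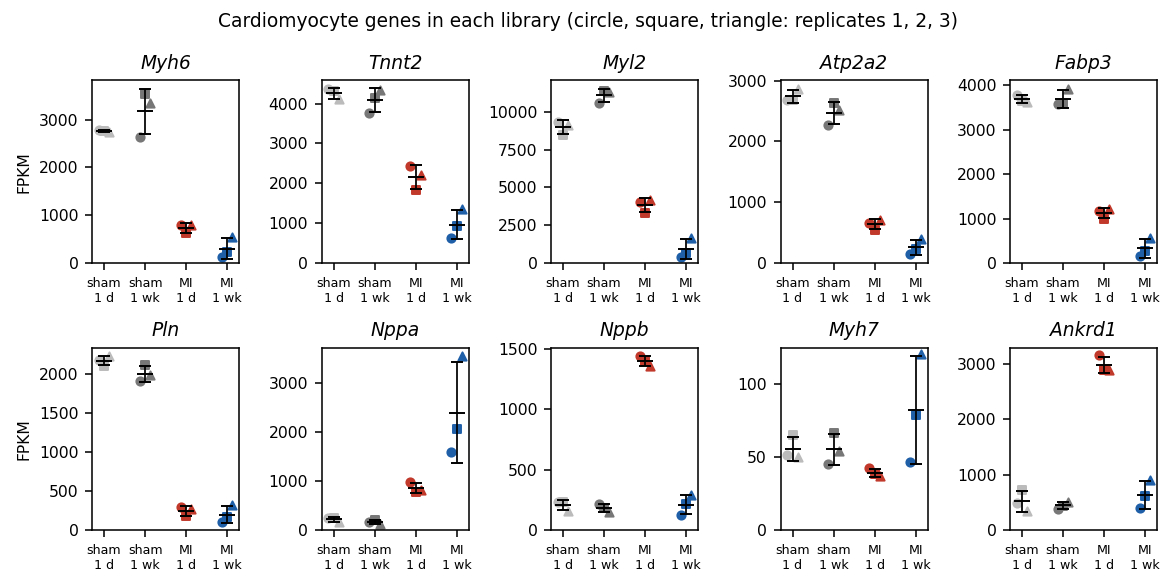
FPKM of cardiomyocyte genes in each library of sham and MI hearts at 1 day and 1 week; circle, square and triangle, replicates 1, 2 and 3; bars, mean ± s.d. (n = 3). Replicate 3 (triangle) of 1 week of MI is the highest of its group in all 10 genes, and Nppa is the only one plotted with every 1-week MI library above every other library.

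Mitochondrial energy genes fell without exception in both lists measured. All 48 genes of oxidative phosphorylation and all 21 of the citric acid cycle fell, with medians of -1.17 and -1.14. The muscle isoforms Cox7a1 (742, 739 and 929.7 to 49.8, 93.1 and 204 FPKM) and Cox8b (485 to 102) fell most. Of 33 genes of fatty acid oxidation 28 fell, among them Pdk4, which turns off glucose oxidation (136 ± 25.3 to 14.7 ± 2.07), and Cpt1b, the muscle form of the enzyme of fatty acid entry (33.7 to 14.8). Cpt1a, the form of liver and many other tissues, was the only one to rise (12.04 ± 1.70 to 34.7 ± 1.25). The mean log2(FPKM + 1) of the oxidative phosphorylation list was 6.41, 6.66 and 7.09 in replicates 1, 2 and 3 of 1 week and 7.81 to 8.02 at 1 day. The cardiomyocyte list had the same order of replicates at 1 week, and its part in these counts was not tested.

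Glutathione peroxidases, which reduce peroxides and which the study followed, rose in 4 of 5. Gpx3, the secreted form, had 82.3, 61.5 and 52.8 FPKM at 1 day and 427, 481 and 447 at 1 week (2.79 ± 0.16). Gpx7 of the endoplasmic reticulum had 3.24, 2.97 and 2.63 at 1 day and 53.0, 48.0 and 41.9 at 1 week (3.62 ± 0.10). Gpx8, of the same compartment, had 13.7, 12.7 and 13.2 at 1 day and 89.2, 79.3 and 68.7 at 1 week (2.49 ± 0.10). The groups were apart in all 3. Gpx1 of the cytosol rose from 95.8, 138 and 109 to 246, 231 and 216. Gpx4, which protects membranes from lipid peroxides, had 207, 197 and 215 at 1 day and 189.7, 197 and 216 at 1 week, with overlap and no call as deposited (-0.04 ± 0.10, limma adjusted p 0.699). Both other scalings called it lower (-0.23, limma adjusted p 0.0424, quantile, and -0.68, 0.000467, median-ratio). Of 32 genes of the NRF2 and antioxidant list 13 fell and 5 rose. Slc7a11, the cystine importer, fell from 2.75, 7.06 and 6.18 to 0.349, 0.410 and 0.298 (-2.15 ± 0.25). It had passed the filter through 1 day alone and was bound to come out lower. Hmox1, haem oxygenase, fell from 177, 253 and 226 to 76.9, 96.5 and 73.8 (-1.39 ± 0.16), and Gsr, glutathione reductase, from 57.1 ± 12.7 to 13.2 ± 1.34. The extracellular dismutase Sod3 rose from 19.6 ± 2.87 to 189.7 ± 8.72. Of 18 genes of ferroptosis and iron 7 fell, such as Tfrc, the transferrin receptor (14.6 ± 1.23 to 3.64 ± 1.498), and 2 rose, Ncoa4 and the ferrireductase Steap3 (2.66 ± 0.460 to 34.5 ± 3.604).

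Far more genes differed between the stages in MI than in sham hearts. In the 6 sham libraries, 1 week against 1 day gave 666 called genes of 12677, 5.25 percent, 237 higher and 429 lower. The stage difference of MI differed from that of sham in 9966 genes, 78.6 percent, by the interaction term of a limma fit of the 12 libraries. It was higher in MI in 8253 of them and lower in 1713. These counts are of the values as deposited. Their median log2 fold change over all tested genes was 0.51 in MI and -0.046 in sham, and the counts hold this shift of scale. Of the 10122 genes called in MI as deposited (81.7 percent), 9432 had an interaction of the same direction that was called. Sham ventricles also held more collagen mRNA at 1 week than at 1 day, for Col1a1 16.1 and 36.9 FPKM as means, so that the MI difference exceeded the sham difference by 6.71 on the log2 scale (limma adjusted p 1.38e-10).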

How the data were processed

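Left ventricular mRNA was sequenced from TruSeq libraries on an Illumina HiSeq. The authors deposited FPKM per gene for 18 mRNA libraries. Submitters' processing notes name TopHat2 2.0.13, Bowtie2 2.2.3, Cufflinks 2.2.1 and mm10. The authors also deposited log2 normalized values, used here only as an alternative, and fold changes with p-values of MI against sham, which were not used; small RNA values were not used here. Samples were grouped by their labels. Of 16415 genes, the 12395 that reached 1 FPKM in 3 or more of 6 libraries were tested on log2(FPKM + 1) with limma 3.58.1 (trend, two-sided, Benjamini-Hochberg adjusted p below 0.05) in R 4.3.3. An exact permutation test of 3 against 3 cannot go below 0.1. Scripts were tested on simulated data. The fit was repeated after quantile normalization and division by median-ratio factors, with pseudocount 0.1, no filter, a mean of at least 5 FPKM, the authors' normalized values, all 18 libraries, no trend, a replicate block and without each library. Sham libraries of both stages entered an interaction fit. Absolute fragment counts cannot be had from FPKM, so depth is unknown and no counting interval is given.

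The gene lists and members were chosen with earlier results of these data known, so they are no independent evidence. Genes named in the text were the 12 largest changes each way, a panel for each list, and list members named for their role or for being a list's extreme, which were chosen after their values were seen. Gene symbols are those of the files. A few list members are counted but not reported here by name. Reads of close copies (Hspa1a and Hspa1b, Stfa2l1, Ccl21a) and of overlapping or antisense genes may be shared, and whether counting used strand is not given in the sources used here.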

Additional observations from a re-analysis of the deposited data

Results flagged for a closer look

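In 9966 genes the difference between 1 week and 1 day after MI was not the same as that between 1 week and 1 day after the sham operation, by the interaction term of limma on the deposited values. It was higher in MI in 8253 and lower in 1713, a split that holds the shift of the MI values as a whole. Of the genes named here, 10 were among them and were called in opposite directions in the MI and the sham libraries as deposited. Spp1 differed by 6.26 on the log2 scale (limma adjusted p 8.36e-08), with lower values at 1 week in sham hearts (45.6 to 0.3996 FPKM, -4.96) while it stood at 270.0 and 616 after MI. Gpx3 differed by 3.30 (87.1 to 60.9 FPKM in sham, -0.52, limma adjusted p 0.0463) and Gpnmb by 7.34 (1.05 to 0.258 in sham, -0.68, limma adjusted p 0.0137). In these 3 the sham libraries were lower at 1 week and the MI libraries higher, the MI call of Spp1 being lost with median-ratio factors. Pdia3 also was higher at 1 week in MI and lower in sham, with a difference of 2.10. The reverse, lower in MI and higher in sham, was found for Pdk4 (-4.04), Tfrc (-3.09), Apln (-2.58), Cldn5 (-2.20), Nfkbia (-1.94) and Kit (-0.77). For Pdk4 the sham means were 90.9 FPKM at 1 day and 176 at 1 week, against 136 and 14.7 in MI, and for Tfrc 9.68 and 24.8 against 14.6 and 3.64. Groups of 3 libraries were too small for a check of single values far from their group.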

How the results depend on the processing

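The number of called genes stayed between 9482 and 10123 in the deposited values with another fit or pseudocount or without a single library. It was 11976 (9708 higher) without a filter, and 6474 (4967 higher) when only genes with a mean of at least 5 FPKM were tested, where fewer genes were tested. Calls higher at 1 week were 4748 (quantile normalization), 4629 (median-ratio) and 4753 (values normalized by the authors), and calls lower were 4754, 5021 and 4761, so 80.26 percent of calls were higher as deposited and 49.97, 47.97 and 49.96 percent in these scalings. The median of all tested genes was 0.60 with a pseudocount of 0.1, 0.34 without a filter, 0.44 above the mean of 5 FPKM, and -0.0086, -0.030 and -0.0090 in the 3 scalings. Above the mean of 5 FPKM, 9 acute cytokine genes were called lower and 7 genes of G2 and mitosis higher, since most of these genes have lower values. Directions reversed for Nfkb1 (-0.059 with median-ratio factors), P4ha2 (-0.11), Tkt (-0.028) and Vcan (-0.067) likewise, Hsf1 (-0.25 after quantile normalization, -0.32 with median-ratio factors, -0.26 in the authors' values) and Cd79b (-0.052 and -0.046, quantile and authors'). Leaving out 1 library at a time gave 9482 to 10078 called genes, 7713 to 8196 higher, 1724 to 2148 lower and a median of 0.46 to 0.54. DESeq2 and edgeR could not be used, since FPKM are no counts. Replicate numbers did not pair the libraries (correlations of deviations -0.26, 0.17 and 0.26), and with the replicate block 9898 genes were called, 7953 of them higher. Depth is unknown in fragments, which limits genes near 1 FPKM most.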

Other observations

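Genes of the ribosome and of its assembly moved apart. Of 22 tested genes of ribosome biogenesis 18 fell and none rose, with Rrp12, which exports the small subunit, from 17.1 ± 0.808 to 2.76 ± 0.468 FPKM and Nop58, a core protein of small nucleolar particles, from 44.7 ± 3.43 to 16.4 ± 1.02 (mean ± s.d., n = 3). Of 36 cytosolic ribosomal protein genes 33 were called higher as deposited by limma, but only 2 in all 3 scalings, while quantile normalization called 26 higher and 2 lower and the median-ratio scaling 2 higher and 8 lower. The median of that list was 0.59 as deposited and 0.08 relative to all genes, so the direction of ribosomal protein genes depended on the scaling.

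Of 21 complement genes 14 rose and 4 fell. The classical serine protease C1s rose from 5.55 ± 0.618 to 59.7 ± 2.70 FPKM and its inhibitor Serping1 from 37.3 ± 3.28 to 324 ± 31.2, while the anaphylatoxin receptor C5ar1 fell from 48.9 ± 16.5 to 24.1 ± 0.758. Of 23 integrin genes 12 rose and 6 fell, and 5 of the tested ones, Itga8 among them, had passed the filter through 1 week alone and 1 through 1 day alone. The collagen-binding Itga11 went from 0.896 ± 0.116 to 35.5 ± 5.15 and Itga8 from 0.118 ± 0.0436 to 3.73 ± 0.236, whereas the leukocyte chain Itgal and the muscle laminin receptor Itga7 fell from 8.37 ± 2.92 to 2.63 ± 0.122 and 40.8 ± 4.88 to 16.9 ± 2.96. Of 26 cell death genes 7 fell, with the inflammasome sensor Nlrp3 from 11.6 ± 4.75 to 1.29 ± 0.208, and 3 rose. Of 10 genes related to epithelial-mesenchymal transition 6 rose, where 33.3 percent of all tested genes did, and Cdh1 fell. Snai2, which went from 0.821 ± 0.0167 to 14.02 ± 0.271, had passed the filter through 1 week alone. Cdh1 had passed through 1 day alone, so the directions of both were bound to follow. Smaller lists of other cell types gave 6 risen and 2 fallen of 9 for mesothelium (5 passed the filter through 1 week alone), 2 and 1 of 5 for adipocytes, 2 and 1 of 6 for atrium, 1 and 5 of 6 for platelets and red cells, 2 and 0 of 4 for Schwann cells and 1 and 0 of 2 for skeletal muscle. Replicate 1 of 1 week was the highest library for the mesothelial Upk3b and Msln, with 11.1, 2.68 and 4.28 and 10.4, 3.38 and 4.08 FPKM in the 3 libraries of 1 week, and without it the lists still had 6 mesothelial, 2 adipocyte and 2 skeletal muscle genes called higher. Cfd, an adipocyte protease, had 0.572, 23.0 and 0.206 FPKM at 1 day, so replicate 2 of that group stood alone, and 23.7, 11.9 and 13.7 at 1 week. It was not called in the 6 libraries but was higher without that replicate (limma adjusted p 1.16e-05).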
